A study of Rattus norvegicus with 36 samples.

Results

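The genes described here encode the proteins of the mitochondrial ribosome, measured in rats 44 weeks after they had inhaled crystalline silica. They were chosen by name, as every probe whose gene symbol began with Mrpl or Mrps followed by a number. Of the 21792 probes on the array, 62 met this rule, 1 probe per gene, 39 with names of the large subunit and 23 with names of the small subunit. A gene entered the test in a tissue when at least 6 of the 12 arrays detected its probe, with a detection p under 0.05. That left 59 genes in lung, 59 in cells from lung lavage and 52 in blood, and 52 were tested in all 3 tissues.

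Mitochondria carry their own ribosomes, which resemble those of bacteria more than those of the surrounding cytosol. They translate the few messenger RNAs that mitochondrial DNA encodes, all for membrane proteins of the respiratory chain and the ATP synthase. Every protein of this ribosome is encoded in the nucleus, made in the cytosol and imported, and many of the genes cause inherited disorders of energy production in people. In macrophages, the main cell of lavage fluid and the cell that takes up inhaled silica, respiration is known to shift with the state of activation.

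Expression was profiled on Illumina rat BeadChips in total RNA of lung tissue, of blood and of the cells washed out by bronchoalveolar lavage (BALF cells). The animals were male Fisher (CDF) 344 rats, labelled as approximately 3 months old. Sampling came 44 weeks after exposure, so this label cannot be the age at sampling. One group of 6 rats inhaled silica at 15 mg/m3 for 6 hours a day on 5 days, and a control group of 6 rats inhaled air (0 mg/m3). The labels give the same 12 rats for each tissue, so that 36 arrays entered the comparisons and each rat is 1 replicate. No genetic change is given for either group, and each group is a single exposure at a single time.

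The arrays detected 10974 to 11607 probes in lung, 9229 to 9773 in BALF cells and 7244 to 8861 in blood. The 95th percentile of the raw signal lay between 2276 and 2980 in lung, between 2031 and 2901 in BALF cells and between 514 and 1104 in blood, so that the blood arrays were dimmer. Alveolar epithelial markers were detected in lung for 8 of 8 genes, and erythroid markers in blood for 5 of 5. In BALF cells 6 of 7 macrophage and monocyte markers were detected, all but Cd163. All 59 tested ribosome genes were detected on all 12 arrays in lung. In BALF cells 58 were, and in blood 47 were. None was tested in any tissue through detection in 1 group alone. Mrpl30, Mrps21 and Mrps31 were tested in no tissue. Blood further lacked Mrpl14, Mrpl17, Mrpl51, Mrps2, Mrps10, Mrps15 and Mrps26.

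Names and positions in the ribosome do not match everywhere. Structures of the mammalian mitochondrial ribosome place Mrps30 and Mrps18a in the large subunit. The protein of Kgd4, which the array lists as Mrps36, is now known as a subunit of the 2-oxoglutarate dehydrogenase complex of the citric acid cycle. The symbols mrpl9, mrpl11 and mrpl24 are spelt with a small letter in the current rat gene table. That table (RefSeq, GRCr8) holds 81 protein-coding genes and 40 pseudogenes with such symbols, and the array has 7 more probes described as similar to a mitochondrial ribosomal protein. Binding of a probe to such copies was not tested.

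The 5 sequences below are stretches of 30 bases at or just after the transcription starts of genes whose levels rose in BALF cells of silica rats, shown because their promoters hold a motif of the factors known to drive nuclear genes for mitochondrial proteins. They come from the RefSeq promoter table of GRCr8, read 5′ to 3′ along the gene, and capitals mark the motif. In Mrpl37, Mrpl49 and Mrps7 it is the core of the YY1 motif, and in Mrpl3 and Mrpl52 that of the ETS family, to which the GABP factor belongs (in Mrpl52 on the opposite strand).
Mrpl37 (chr5:127074943-127074972, minus strand): ctgcccgggcaAAGATGGCggcgtccaggt
Mrpl49 (chr1:212779293-212779322, minus strand): ttggaggagcaAAGATGGCagcaaatgtat
Mrps7 (chr10:101342637-101342666, plus strand): tgatagcggccAAGATGGCtgcccccgcac
Mrpl3 (chr8:114548968-114548997, plus strand): ttgagaaacggaCCGGAAGtggctcagctg
Mrpl52 (chr15:31852925-31852954, plus strand): gagccacgcccaCTTCCGGtttctttgctc

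The motif began 7 bases into the transcript in Mrpl37 and Mrps7, 17 in Mrpl49, 11 in Mrpl3 and 2 in Mrpl52, counting the start as 1. The Mrpl52 promoter held the ETS letters at 2 places, of which the one nearest the start is shown. The letters ATG inside the YY1 motif can also be a start codon, which this search does not separate. Promoters of 300 bases, 250 before the start and 50 after it, were given for 52 of the 62 genes. AAGATGGC stood on either strand of 14 of these 52 (26.9%) and of 3.4% of all 27457 promoters in the table (3.9% of the 19005 of protein-coding genes). CCGGAAG stood in 17 (32.7%, against 9.2% and 11.2%), and the core of the NRF1 motif, GCGCA and GCGC with any base between them, in 9 (17.3%, against 4.7% and 6.1%). In all, 30 of 52 (57.7%) held at least 1 of the 3 motifs, against 15.5% of all promoters and 18.8% of those of protein-coding genes. Among genes called higher in BALF cells 7 of 10 promoters held one, among those called lower 1 of 4, and among those not called 19 of 35. The promoter of mrpl24, the gene with the largest fall, held none of these letters. Nor did those of Mrpl47, Kgd4 and Mrps5, which were called higher in BALF cells. A match is a description of the letters, not evidence of binding.

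In BALF cells the mitochondrial ribosome genes moved in both directions, more often up than down. Of 59 genes, 11 rose and 4 fell with silica (limma, adjusted p under 0.05 by Benjamini-Hochberg over all tested probes), 25.4% of the genes against 33.3% of all 9564 tested probes. By direction, the background was 15.2% higher and 18.1% lower. The median log2 change of the 59 genes was 0.03, with a range from -0.44 to 0.40, beside -0.0057 over all tested probes. In 6 genes, Mrpl3, Mrpl47, Mrpl49, Mrpl52, Mrps7 and Kgd4, every silica rat lay above every air rat, and in 1 gene, mrpl24, every silica rat lay below, where the background was 9.04% and 9.67% of probes. Changes were small, and 5 of 59 genes reached 1.25-fold. With arrays centred on the median of all probes instead of quantile normalised, limma called 0 ribosome genes, and 275 higher and 207 lower of all probes. In a bulk sample, fewer cells of a type and less RNA per cell cannot be told apart.

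**Figure D1:**
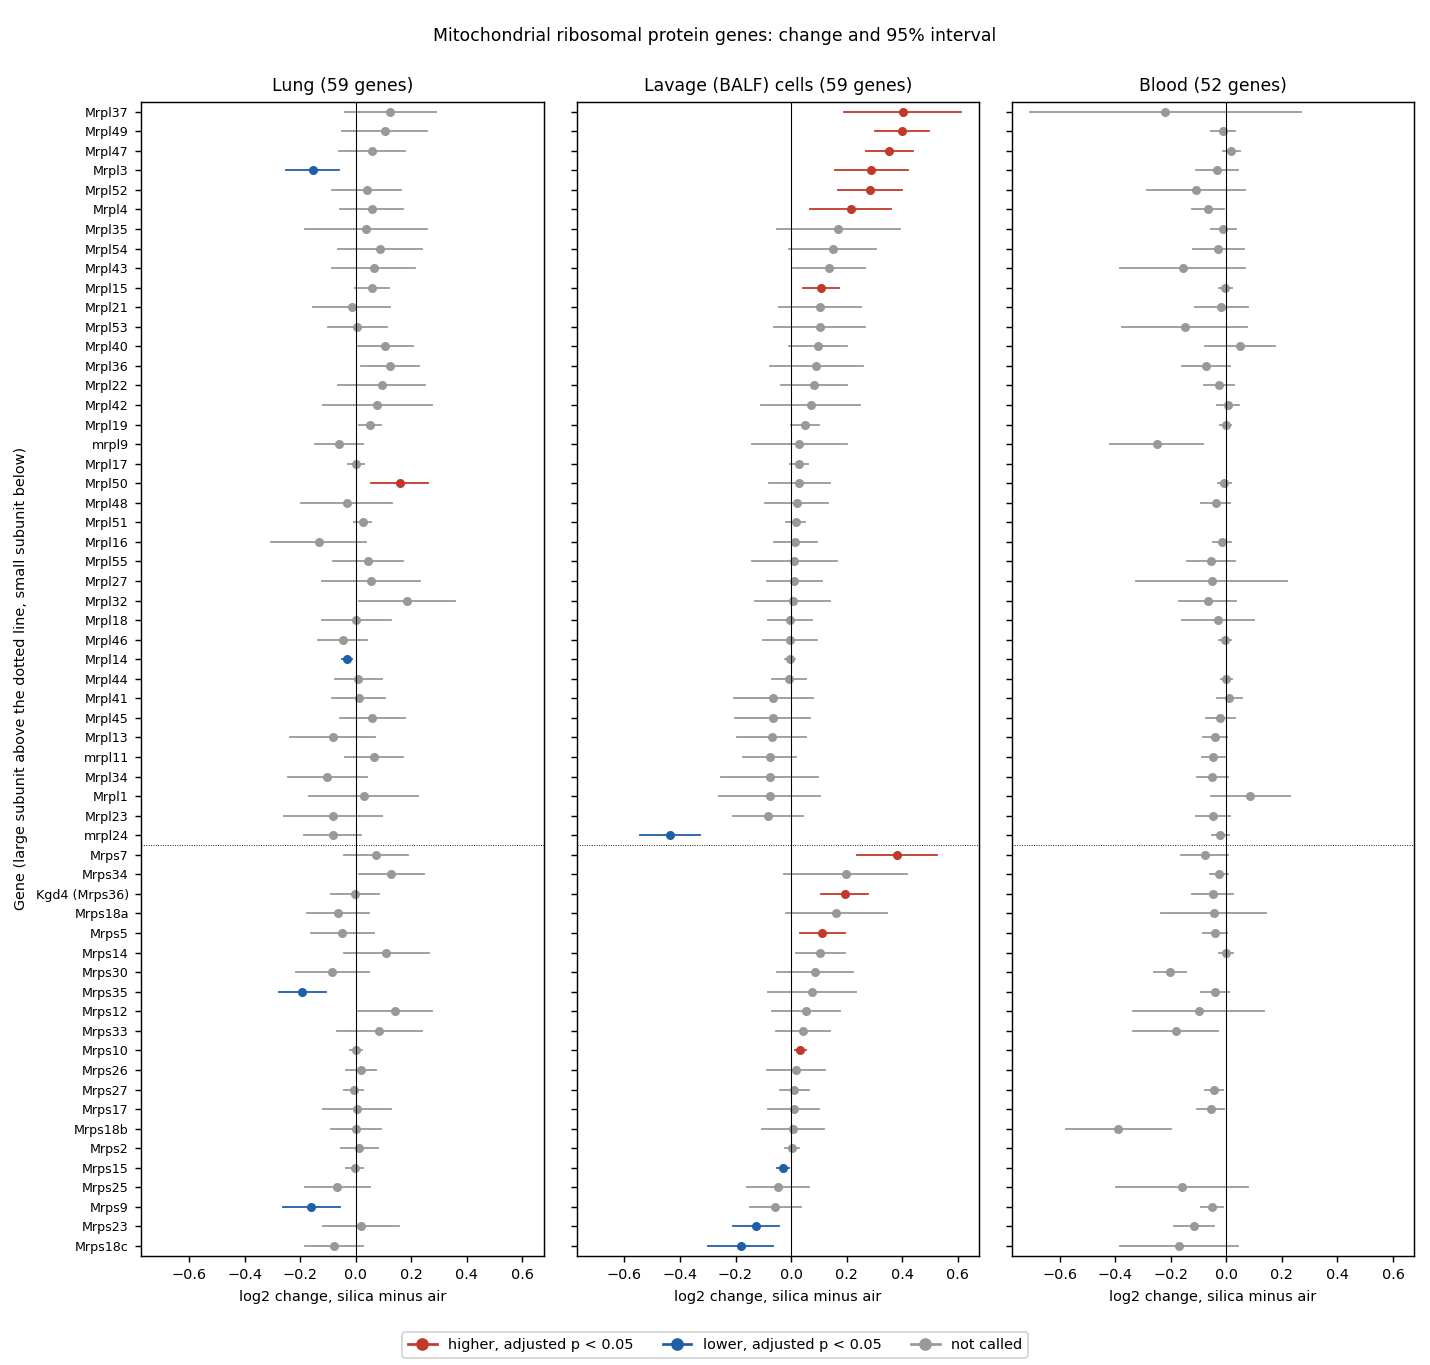
Log2 change of each mitochondrial ribosome gene (silica minus air, horizontal axis) in lung, BALF cells and blood. Points are the fitted change and lines its 95% interval over 6 silica and 6 air rats. Genes are ordered by their change in BALF cells within each subunit, assigned by name, and colour marks an adjusted p under 0.05. In BALF cells 11 genes are red and 4 blue, in lung 1 and 4, and in blood none.

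The large subunit forms peptide bonds. Genes with its names gave 7 of the rises and 1 fall among 38 tested (21.1% called). Mrpl37 and Mrpl49 encode proteins that mitochondrial ribosomes have and bacterial ribosomes lack. The normalised log2 intensity of Mrpl49 was 8.90 at the lowest, 8.96 at the median and 9.03 at the highest in air rats, and 9.22, 9.40 and 9.48 in silica rats. All 6 silica rats lay above all 6 air rats, a log2 change of 0.40 ± 0.044 (SE, n = 6 per group; limma, adjusted p = 5.2e-05) or 1.32-fold. Mrpl37 had values of 9.34, 9.64 and 10.07 in air rats and of 9.97, 10.07 and 10.14 in silica rats. It rose by the same log2 change, 0.40 ± 0.095 (limma, adjusted p = 0.0072), but 1 air rat reached 10.07, inside the silica range.

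Mrpl47 is the counterpart of a bacterial protein at the exit of the peptide tunnel. Its values were 8.43, 8.51 and 8.60 in air rats and 8.80, 8.83 and 9.0 in silica rats. The groups did not overlap, and the change was 0.35 ± 0.039 (limma, adjusted p = 4.8e-05). Mrpl3 lies near the catalytic centre of the subunit and is a gene for cardiomyopathy in people. It was at 9.91, 10.14 and 10.24 in air rats and at 10.28, 10.40 and 10.49 in silica rats. Again no values overlapped, with a change of 0.29 ± 0.060 (limma, adjusted p = 0.0033) or 1.22-fold. Mrpl52, another protein without a bacterial counterpart, went from 11.06, 11.23 and 11.36 to 11.43, 11.50 and 11.64, also without overlap (0.29 ± 0.052, limma, adjusted p = 0.0015).

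The remaining rises of the large subunit were smaller. Mrpl4, counterpart of a bacterial protein that binds ribosomal RNA early in assembly, rose by 0.21 ± 0.066 (limma, adjusted p = 0.027), with 5 of 6 silica rats above all air rats. Mrpl15, also of bacterial type, rose by 0.11 ± 0.030 (limma, adjusted p = 0.017), with 4 of 6 above. The call of Mrpl4 did not hold without air replicate 5 or without silica replicate 3 or 6. The 30 genes with large-subunit names that did not pass had changes between -0.08 for Mrpl23 and 0.17 for Mrpl35.

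The largest change of any mitochondrial ribosome gene was a fall. mrpl24 encodes the counterpart of the bacterial protein that starts assembly of the large subunit. Its values in BALF cells were 9.37, 9.57 and 9.63 in air rats and 8.99, 9.11 and 9.15 in silica rats. All 6 silica rats lay below all 6 air rats, a fall of 0.44 ± 0.050 on the log2 scale (limma, adjusted p = 6.3e-05), or 1.35-fold. It was the single fall among the 38 tested genes with large-subunit names.

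The small subunit reads the messenger RNA. Genes with its names gave 4 rises and 3 falls among 21 tested (33.3% called), with Mrps30, Mrps18a and Kgd4 counted here by name. Mrps7, a bacterial-type protein of the head of the subunit and a disease gene in people, had values of 10.96, 11.16 and 11.33 in air rats and of 11.40, 11.55 and 11.66 in silica rats. The groups did not overlap, and the change was 0.38 ± 0.065 (limma, adjusted p = 0.00098), or 1.30-fold. Kgd4 (Mrps36 on the array) had values of 10.84, 10.96 and 10.997 in air rats and of 11.03, 11.15 and 11.23 in silica rats. Its groups did not overlap either (0.19 ± 0.039, limma, adjusted p = 0.0025), and by its present name it is a gene of the citric acid cycle rather than of the ribosome. Without it, 10 genes were higher.

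Mrps5 and Mrps10, bacterial-type proteins, were the other 2 rises. Mrps5 rose by 0.11 ± 0.037 (limma, adjusted p = 0.037). Its call held when air replicate 3, 5 or 6 was left out and was lost when any of the other 9 arrays was. The probe of Mrps10 was dim, at 7.40 to 7.45 in air rats and 7.45 to 7.48 in silica rats, and its change of 0.033 ± 0.0092 (limma, adjusted p = 0.018) lies near the detection floor, where a log2 change understates the change in RNA. Mrps18c, 1 of 3 related genes for proteins of the bacterial S18 type, had values of 9.37, 9.51 and 9.60 in air rats and of 9.15, 9.31 and 9.43 in silica rats. It fell by 0.18 ± 0.053 (limma, adjusted p = 0.022), while Mrps18a changed by 0.16 ± 0.083 and Mrps18b by 0.0054 ± 0.051, neither of which passed the test. Mrps23, without a bacterial counterpart, went from 10.82, 10.86 and 11.005 to 10.71, 10.73 and 10.87, with 5 of 6 silica rats below all air rats. Its fall was 0.13 ± 0.038 (limma, adjusted p = 0.025), a call not kept without air replicate 3 or without silica replicate 3, 4 or 5 (adjusted p of 0.0517 to 0.0552). The other fall, of the dim probe of Mrps15, was 0.028 ± 0.0096 (limma, adjusted p = 0.042). Its call was lost without air replicate 1, 2, 5 or 6, or without silica replicate 1, 3, 4 or 5 (adjusted p of 0.0584 to 0.0878), and its change turned to 0.017 when arrays were centred on their always-detected probes instead of quantile normalised. The 14 genes with small-subunit names that did not pass had changes between -0.06 for Mrps9 and 0.20 for Mrps34.

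**Figure D2:**
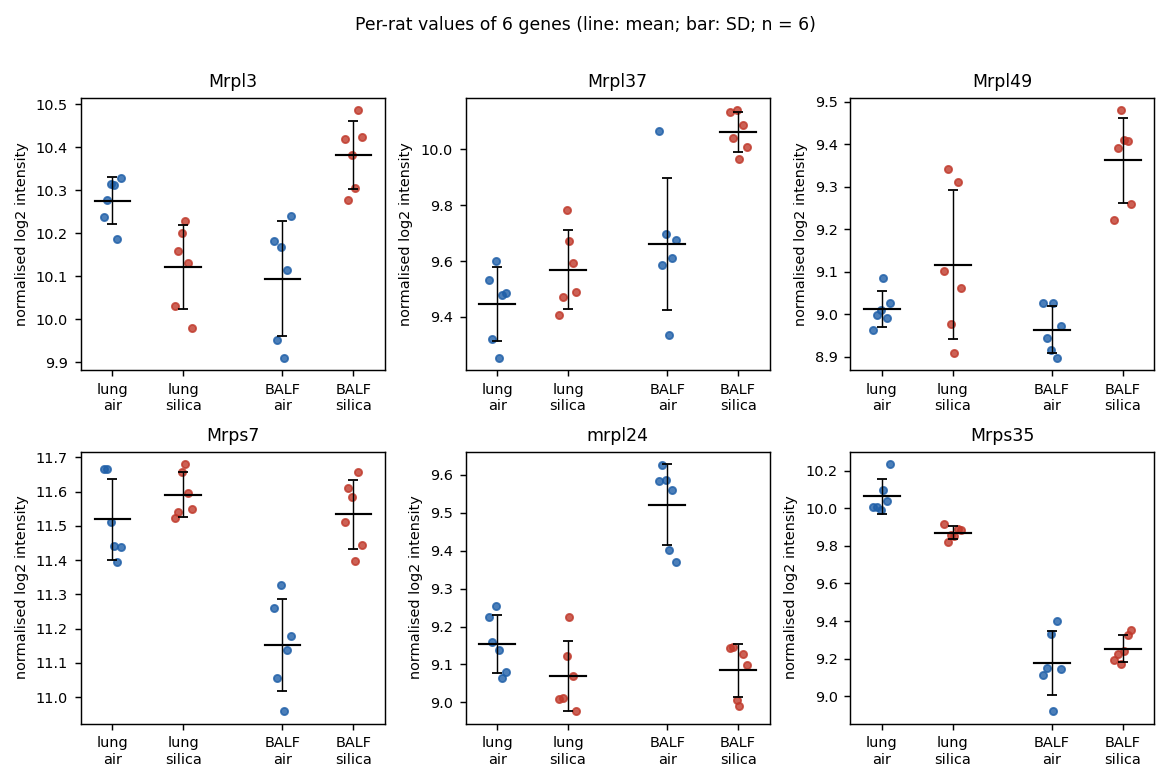
Normalised log2 intensity (vertical axis) of 6 mitochondrial ribosome genes in each rat, for lung and BALF cells by exposure. Points are rats, the horizontal line is the mean and the bar the SD (n = 6 per group). In BALF cells silica rats lie above air rats for Mrpl3, Mrpl49 and Mrps7 and below for mrpl24, 1 air rat reaches the silica range for Mrpl37, and Mrps35 separates the groups in lung.

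In lung tissue fewer of the same genes passed the test. Of 59 genes, 1 was higher and 4 were lower, 8.47% against 17.7% of all 11399 tested probes (8.26% higher and 9.46% lower). The median log2 change was 0.01, beside -0.0043 over all probes, and no gene reached 1.25-fold. The 95% interval of the change stayed within 1.25-fold for 58 of 59 genes, against 83.3% of all tested probes. In 2 genes every silica rat lay below every air rat and in 0 above, where the background was 4.35% and 4.83%. At an unadjusted p under 0.05 there were 11 genes. Centring on the median of all probes left 0 of the 5 calls (limma), and 37 higher and 40 lower of all probes.

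Mrps35, a protein of the small subunit without a bacterial counterpart, had the largest fall. It was at 9.99, 10.02 and 10.24 in air rats and at 9.82, 9.87 and 9.91 in silica rats. The groups did not overlap, and the fall was 0.19 ± 0.039 on the log2 scale (limma, adjusted p = 0.0065), or 1.14-fold. In BALF cells its change was 0.08 ± 0.072, which did not pass the test.

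Mrps9, of bacterial type, lies in the head of the small subunit. Its lung values were 10.05, 10.20 and 10.33 in air rats and 9.94, 10.05 and 10.09 in silica rats. These ranges overlapped, with 3 silica rats below all air rats, and the fall was 0.16 ± 0.046 (limma, adjusted p = 0.034). Mrpl3, which rose in BALF cells, went the other way here, from 10.19, 10.30 and 10.33 to 9.98, 10.14 and 10.23. With 4 of 6 silica rats below all air rats it fell by 0.15 ± 0.044 (limma, adjusted p = 0.032).

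Mrpl50, a protein of the large subunit without a bacterial counterpart, was the rise in lung. It was at 8.15, 8.24 and 8.37 in air rats and at 8.30, 8.39 and 8.53 in silica rats, a change of 0.16 ± 0.047 (limma, adjusted p = 0.038). The dim probe of Mrpl14 separated the groups, at 7.51 to 7.54 against 7.47 to 7.51, with a fall of 0.032 ± 0.0089 (limma, adjusted p = 0.032), and turned to 0.08 with arrays centred on their always-detected probes. Mrpl32 had the largest positive change, 0.18 ± 0.078, and did not pass the test. The calls of Mrps9, Mrpl3, Mrpl50 and Mrpl14 each lay near the threshold. Each was lost when any of several single arrays was left out. That of Mrps9 was lost without air replicate 4, 5 or 6, or without silica replicate 1, 3, 4 or 6 (limma, adjusted p of 0.0536 to 0.0759). That of Mrpl3 was lost without air replicate 2, 3, 4 or 6, or without silica replicate 1 or 5 (0.0555 to 0.0658). That of Mrpl50 was lost without any air array but replicate 3, or without silica replicate 1, 2 or 5 (0.0509 to 0.079). That of Mrpl14 was lost without air replicate 2, 4, 5 or 6, or without silica replicate 4, 5 or 6 (0.0524 to 0.0671). That of Mrps35 held without each of the 12 arrays in turn.

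Cell type markers moved with silica in the same samples, where 17.7% of all probes were called in lung and 33.3% in BALF cells. In lung, 6 of 7 macrophage and monocyte markers were higher and 1 lower, and the summed normalised intensity of the list was 6312 to 8240 in air rats and 9440 to 13551 in silica rats. Endothelial markers were lower for 3 of 6, with sums of 29857 to 35442 in air rats and 22282 to 28974 in silica rats, and smooth muscle and fibroblast markers for 3 of 5. Cell division markers were higher for 4 of 5 (1038 to 1148 against 1256 to 1702), and 1 of 4 B and plasma cell markers, Jchain, was higher (1480 to 2716 against 3922 to 5841). Alveolar epithelial markers in lung were higher for 2 of 8 and lower for 2, and erythroid markers there were lower for 2 of 5. Of 4 alveolar macrophage markers, 1 was higher and 1 lower in lung (3859 to 4856 against 3748 to 5585), and 2 were higher and 1 lower in BALF cells (7463 to 10398 against 8413 to 12950). In lung Fabp4 rose by 1.63 and Car4 fell by 0.58 on the log2 scale, which the sum does not show. Mean log2 intensity of Car4 in air rats was 11.58 in lung and 7.38, near the detection floor, in BALF cells. The lung sum of this list therefore cannot be read as alveolar macrophages alone. In BALF cells 4 of 6 macrophage markers were higher and 1 lower, with sums of 25925 to 28394 and of 27835 to 29972. Neutrophil markers were higher for 3 of 4 (995 to 1086 against 1183 to 1616, with S100a9 and Csf3r not detected on 6 arrays) and T and NK cell markers for 4 of 5 (1307 to 1377 against 1461 to 2379). Cell division markers were higher for 4 of 5 (3087 to 3990 against 4926 to 6339), and platelet markers lower for 2 of 2 (6431 to 8998 against 3367 to 5249). Alveolar epithelial markers were higher for 2 of 4 (1399 to 1471 against 3128 to 3991, most of it Hopx), while Sftpc, Sftpb, Ager and Sftpd were not detected on 6 arrays. Erythroid markers, with 0 of 3 called, ranged from 3940 to 44994 and from 1410 to 17071. Some called probes were dim. Mean log2 intensity went from 7.50 to 7.47 for Cd163 in lung. In BALF cells it went from 7.37 to 7.47 for Mmp8 and for Pdpn, and from 7.44 to 7.40 for Ppbp. The part of the marker shifts in the ribosome genes was not tested.

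In blood no mitochondrial ribosome gene passed the test. The count was 0 of 52, as it was 0 of all 8044 tested probes (0%), while 10 of 52 and 1072 of 8044 had an unadjusted p under 0.05 in limma. The changes leaned to one side: 46 of 52 were below 0, among them all 17 genes with small-subunit names. The median was -0.04 beside -0.0032 over all probes. With arrays centred on the median of all probes, the median was 0.032 for the ribosome genes and 0.032 over all probes. With centring on always-detected probes, these medians were -0.034 and -0.035, so the lean relative to all probes was not seen under either centring. Of all 8044 probes, 4532 were below 0. Without the 3 blood arrays of lowest signal, air replicates 1 and 2 and silica replicate 6, the median of the ribosome genes was -0.02.

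Mrps30 had the smallest p in blood. Its values were 7.92, 7.99 and 8.05 in air rats and 7.72, 7.79 and 7.83 in silica rats, with no overlap, and it was the single gene of 52 to separate the groups. Among all probes 0.622% lay wholly below and 0.609% wholly above. The log2 change was -0.20 ± 0.026 (limma, adjusted p = 0.079), which did not pass. Mrps18b, with values of 8.45, 8.83 and 8.92 in air rats and 8.24, 8.31 and 8.52 in silica rats, had the largest change, -0.39 ± 0.086 (limma, adjusted p = 0.18). Mrps23 (-0.12 ± 0.033), mrpl9 (-0.25 ± 0.076) and Mrps27 (-0.05 ± 0.015) followed, none of which passed. These 3 changed sign with arrays centred on the median of all probes. No marker list had a called member in blood. The neutrophil list had sums of 5943 to 12469 in air rats and 9661 to 14596 in silica rats, and the erythroid list of 78597 to 86674 and 77211 to 83646.

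**Figure D3:**
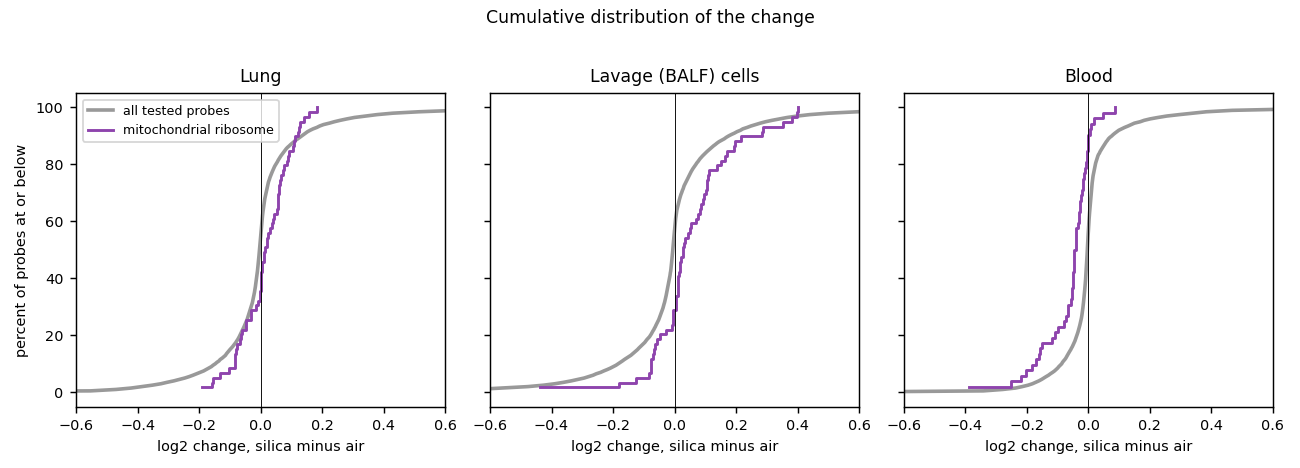
Cumulative share of probes (vertical axis, percent) at or below a log2 change (horizontal axis, silica minus air), for the mitochondrial ribosome genes and for all tested probes of each tissue. The axis is cut at 0.6 in each direction. The ribosome genes have medians of 0.01 in lung, 0.03 in BALF cells and -0.04 in blood.

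Whether silica acted differently in BALF cells and in lung was tested on each rat's difference between the 2 tissues, whose tables were normalised separately. Of 59 genes, 8 differed at an adjusted p under 0.05, 7 upward and 1 downward, against 22.5% of 9131 probes (10.3% upward and 12.2% downward). Mrpl3 differed most. Its fall in lung and rise in BALF cells made a difference of 0.44 ± 0.082 on the log2 scale (limma, adjusted p = 0.0026), and it was the one gene called in both tissues. Mrps7 (0.31 ± 0.081), Mrpl47 (0.30 ± 0.060), Mrpl49 (0.29 ± 0.082), Mrpl37 (0.28 ± 0.089), Mrpl52 (0.25 ± 0.071) and Kgd4 (0.20 ± 0.060) also differed upward. In lung their own changes were between -0.0036 and 0.12, none of which passed the test. mrpl24 differed downward by -0.35 ± 0.070 (limma, adjusted p = 0.004), with a lung change of -0.08 ± 0.047. The count of 8 was 3 with arrays centred on their always-detected probes, and 5 without air replicate 2, silica replicate 1 or silica replicate 6.

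**Figure D4:**
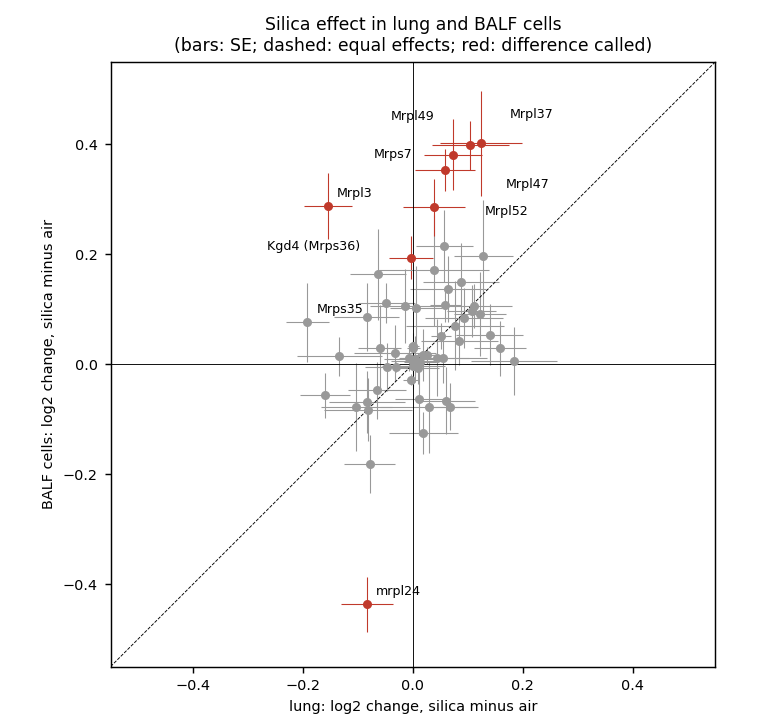
Log2 change (silica minus air) of 59 mitochondrial ribosome genes in lung (horizontal axis) and BALF cells (vertical axis), with SE bars. The dashed line marks equal changes and red the 8 genes whose changes differed between the tissues, of which Mrpl3 lies left of 0 in lung and above 0 in BALF cells.

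Between BALF cells and blood the effect differed for 12 of 52 genes, 11 upward and 1 downward, against 22.6% of 7180 probes (11% upward and 11.5% downward). Among those that passed, the largest differences were those of Mrps7 (0.46 ± 0.071), Mrpl49 (0.41 ± 0.048), Mrpl52 (0.39 ± 0.105), Mrps18b (0.39 ± 0.109) and mrpl24 (-0.41 ± 0.050). For Mrps18b the values behind the difference were 0.0054 in BALF cells and -0.39 in blood, neither of which passed alone. Mrpl37 had a larger difference, 0.62 ± 0.216, that did not pass (limma, adjusted p = 0.06). The count of 12 was 8 without the 3 blood arrays of lowest signal and 3 with arrays centred on their always-detected probes.

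Of the 59 genes tested in any tissue, 19 (32.2%) were called at least once and 40 were not, where 36.3% of all 12225 probes tested in any tissue were called. Of the disease genes named from human genetics, Mrpl3 and Mrps7 were called in BALF cells. Mrps34, which stabilises the small subunit, had changes of 0.13 ± 0.054 in lung and 0.20 ± 0.101 in BALF cells that did not pass. Mrpl44, of the ribonuclease III family, changed by 0.0089 ± 0.039 in lung and -0.0072 ± 0.028 in BALF cells, with 95% intervals of -0.076 to 0.094 and -0.070 to 0.055. Mrps2, with dim probes, changed by 0.013 and 0.0047. Mrpl41, which is also known as a growth regulator in human cells, changed by 0.011 ± 0.043 in lung and -0.06 ± 0.065 in BALF cells, neither past the test.

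Genes that work with the mitochondrial ribosome were read from the same arrays. Of 5 further ribosome proteins without an Mrpl or Mrps name on the array, 2 were higher in BALF cells and 0 in lung. That was 40% and 0%, against 33.3% and 17.7% of all probes called. The 2 rises are named next. They were Dap3, the GTP-binding protein of the small subunit (0.23 ± 0.074, limma, adjusted p = 0.034), and Mrpl58, the peptide-releasing protein listed as Ict1 on the array (0.11 ± 0.025). Of 7 translation factors, 1 was higher and 1 lower in BALF cells (28.6%, against 33.3%), and 1 was lower in lung (14.3%, against 17.7%). Tufm, the elongation factor that delivers transfer RNA, rose by 0.19 ± 0.030 (limma, adjusted p = 0.0006), and Mrrf, which recycles the ribosome, fell by 0.087 ± 0.018 there and by 0.23 ± 0.049 in lung, the one call among 7 in that tissue.

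Of 14 genes for ribosome assembly and rRNA modification, 2 were higher and 2 lower in BALF cells, and 1 was higher and 2 lower in lung. That was 28.6% and 21.4%, near the 33.3% and 17.7% of all probes. Nsun2, placed in this list but known for methylating transfer RNA rather than rRNA, rose in BALF cells (0.22 ± 0.045) and in lung (0.15 ± 0.029). The other rise in BALF cells was that of Yars2 (0.16 ± 0.040), a mitochondrial transfer RNA synthetase that is counted again below. No other gene of the list was called higher in either tissue. Dhx30, an RNA helicase of mitochondrial RNA granules, fell by 0.22 ± 0.041 in lung and Ngrn, which binds the large rRNA, by 0.20 ± 0.036. Among 16 genes of mitochondrial transcription and RNA processing, 3 were higher and 1 lower in BALF cells (25%). The fall was that of Hsd17b10, a subunit of mitochondrial RNase P and an enzyme of isoleucine breakdown (-0.41 ± 0.044, limma, adjusted p = 4.1e-05). Of the mitochondrial transfer RNA synthetases, 2 of 10 were higher and 1 lower in BALF cells (30%) and 0 of 11 changed in lung (limma). Vars2, for valine, rose by 0.44 ± 0.097.

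The respiratory chain and ATP synthase receive the products of this ribosome. No probe for a gene of mitochondrial DNA was found by name, so that only nuclear subunits were read. By symbol, 21 of 59 such genes were higher in BALF cells and 8 lower (49.2%, against 33.3% of all probes), with a median of 0.04. In lung 2 of 62 were higher and 1 lower (4.84%, against 17.7% of all probes), and the median was -0.02. In BALF cells Uqcrfs1, the iron-sulphur subunit of complex III, rose by 0.28 ± 0.049 and Atp5po, of the ATP synthase stalk, by 0.26 ± 0.039. Ndufa1 of complex I fell by 0.49 ± 0.028 (limma, adjusted p = 7.9e-07). The rises include Emc8 (Cox4nb on the array), of the membrane protein complex of the endoplasmic reticulum, and Ndufaf1, an assembly factor of complex I, which are no subunits.

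The ribosome of the cytosol was set beside that of mitochondria. Of 64 cytosolic ribosomal protein genes, 10 were higher and 16 lower in BALF cells (40.6%, against 33.3% of all probes), with a median of -0.03. In lung 2 were higher and 3 lower (7.81%, against 17.7%). Rpl23 fell by 0.20 ± 0.036 and Rps23 by 0.23 ± 0.059 in BALF cells, and Rpl24 rose by 0.27 ± 0.076. In blood the median of the cytosolic list was -0.07 and that of the nuclear respiratory subunits -0.06, beside -0.04 for the mitochondrial ribosome, with 0 genes called in each list (limma).

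Import and folding of mitochondrial proteins had 6 of 22 genes higher and 2 lower in BALF cells, and 5 higher and 0 lower in lung. These shares of 36.4% and 22.7% lie near the 33.3% and 17.7% of all probes. Hspa9, the heat shock protein that pulls imported proteins into the matrix, rose by 0.54 ± 0.072 in BALF cells (limma, adjusted p = 0.00019) and by 0.22 ± 0.043 in lung. Of known regulators of mitochondrial genes, 2 of 6 were higher in BALF cells and 0 lower (33.3%, as of all probes). In lung 1 of 8 was higher and 1 lower (25%, against 17.7%). Myc rose by 0.40 ± 0.110 in BALF cells and by 0.57 ± 0.055 in lung (limma, adjusted p = 0.00015). Gabpa, the DNA-binding subunit of the GABP factor, rose by 0.087 ± 0.028 in BALF cells. Ppargc1a, a coactivator, fell by 0.030 ± 0.0093 in lung from a dim probe and was not detected on 6 arrays in BALF cells, nor was Nrf1.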

How the data were processed

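Per the file headers, each deposited table pairs a mean bead intensity, not normalized between arrays, with a detection p-value for every probe. The authors also deposited processed values that follow log2 intensity, and how dim probes were transformed there is unknown. Tools named per the submitters' processing notes are limma, lumi and BeadStudio, with no version. Slide and scan date are unknown here. The 72 other per-sample columns were not used.

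Within each tissue, limma 3.58.1 in R 4.3.3 was applied: neqc (normexp background from detection p-values, offset of 16, quantile normalization, log2), then lmFit and eBayes over all probes detected on at least 6 of 12 arrays, silica against air, two-sided, called at a Benjamini-Hochberg adjusted p under 0.05. For differences between tissues, the log2 values of a rat were first subtracted. The title and description of blood silica replicate 6 give different numbers. Its column was matched through the description, and its replicate number follows the title. Extraction differed by tissue, per the labels' protocols. Precision is limited by 6 arrays in a group.

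The genes and lists were chosen with earlier results of these data known. Named are, per tissue, the 6 largest rises and falls among called genes (the 5 of smallest p where none passed), genes called in 2 tissues, the 6 largest differences between tissues in each direction, and 9 genes fixed from knowledge, of which Mrpl12, Mrps16 and Mrps22 had no probe by the rule. Other genes are named as values. The fit was tested on simulated data. Lists take the brightest probe of a gene. Gene names follow RefSeq (GRCr8), with 61 of the 62 genes matched by symbol and 1 by synonym. Alternatives are in the closing section.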

Additional observations from a re-analysis of the deposited data

Results flagged for a closer look

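Among the named genes, 88 groups of 6 arrays were examined for an array that stood apart, and 4 had one, where chance gives about 1 in 20. For Mrpl3 in blood, air replicate 2 lay at 7.84 log2 intensity, above the next array at 7.71. For Mrpl44 in lung, air replicate 2 lay at 8.12, below the next at 8.23. For Mrpl47 in BALF cells, silica replicate 2 lay at 9.0, above the next at 8.86, and the rise of Mrpl47 was called without it. For Mrps34 in lung, silica replicate 4 lay at 9.21, above the next at 9.0.

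The silica effect differed between BALF cells and lung, by limma on each rat's difference, for 7 of the named ribosome genes. The differences on the log2 scale were 0.44 for Mrpl3, 0.31 for Mrps7, 0.30 for Mrpl47, 0.29 for Mrpl49, 0.28 for Mrpl37, 0.25 for Mrpl52 and -0.35 for mrpl24, with adjusted p of 0.0026 to 0.0428. Between BALF cells and blood 8 named genes differed: Mrps7 by 0.46, Mrpl49 by 0.41, Mrpl52 and Mrps18b by 0.39, Mrpl47 by 0.34, Mrpl3 by 0.32, Mrps30 by 0.29 and mrpl24 by -0.41, with adjusted p of 0.0002 to 0.0227. A large difference between tissues was 1 ground for naming a gene, so both counts follow in part from the naming. Of all tested ribosome genes, 8 of 59 differed against lung, beside 22.5% of 9131 probes. Against blood 12 of 52 differed, beside 22.6% of 7180 probes. Blood probes of mrpl24, Mrpl47 and Mrpl49 lay between 7.22 and 7.46 on the log2 scale, near the detection floor, where a change is understated.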

How the results depend on the processing

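Tried were no background correction, centring each array on the median of all probes or of the always-detected probes in place of quantile normalization, no filter, detection on all 12 arrays, the authors' values, eBayes with trend and robust, 1 probe per gene, a replicate block, and leaving out each rat. The counts that follow leave out the fits without single rats. They cover the genes named per tissue for the size of a called change or, in blood, for the smallest p. Of these values, 144 kept direction and side of the threshold, 35 kept direction only and 6 changed sign. The 5 blood genes had no call to lose. Smaller rises in BALF cells were not counted, such as that of Mrps5, called in 3 of these 9 settings.

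In lung, 2 ribosome genes were lower without background correction and with trend and robust eBayes, and 0 were higher and 2 lower without the filter. Centring on all probes gave 0 higher and 0 lower (37 and 40 of all probes, median of the ribosome genes -0.18 beside -0.059 over all probes). Centring on always-detected probes gave 0 and 1 (322 and 659 of all probes, 32.8% of calls higher against 46.6%, Mrpl14 at 0.080). The median was then -0.055 beside 0.062 over all probes. Under each centring the ribosome genes lay below all probes in lung, where the main setting had them slightly above. In BALF cells, centring on all probes gave 0 and 0 (275 and 207 of all probes, 57.1% of calls higher against 45.7%, median -0.0083 beside -0.015 over all probes), and on always-detected probes 6 and 1 (513 and 721, Mrps15 at 0.017). The blood median was -0.078 without background correction, beside -0.012 over all probes. With centring on all probes it was 0.032, beside 0.032 over all probes, and Mrps23 was 0.016, mrpl9 0.071 and Mrps27 0.0067. On always-detected probes mrpl9 was 0.0044. Differences between BALF cells and lung, or BALF cells and blood, were then 3 each. The cause was not tested.

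Replicate numbers are not shown to pair the rats across groups: deviations of same-numbered rats correlated between -0.40 and 0.33 in lung, -0.20 and 0.39 in BALF cells and -0.49 and 0.32 in blood, and 1, 2 and 0 of 6 pairs matched best. The replicate block gave 0 higher and 1 lower in lung (603 and 665 of all probes), 11 and 3 in BALF cells, and 5 differences between BALF cells and lung.

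Without single rats, lung had 0 to 1 higher and 1 to 4 lower ribosome genes (757 to 948 and 820 to 1100 of all probes, median -0.0023 to 0.030), and BALF cells 9 to 13 and 2 to 4 (1295 to 1482 and 1481 to 1720, median 0.024 to 0.036). Blood had 0 (0 to 1 of all probes lower, median -0.049 to -0.034). Differences numbered 5 to 9 against lung and 10 to 13 against blood. Dim probes limit the blood values.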
